A study of Mus musculus with 12 samples.

Results

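In mouse cortical astrocyte cultures, 7 genes that encode parts of signalling pathways had fewer transcripts after vasoactive intestinal peptide (VIP): Gpr146, Wnt7a, Pdgfb, Stard8, Dzip1l, Tbx2 and Pfkfb3. The 7 genes were chosen by their lower counts with VIP in cells that carried a control virus, so that difference is a description of the choice and carries no test. The count table held 55573 genes, of which 16761 had enough counts to be tested, and all 7 were among those tested.

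The cells were astrocyte-enriched cortical cultures from C57BL6/J pups of postnatal day 0 to 2, replated at day 7 in vitro after agitation to detach other glia. They were transduced for 5 days with lentivirus, and then bathed for 30 min in VIP or in PBS, the vehicle, with 90 min of recovery before lysis. The 4 groups, of 3 libraries each, were ACREB virus (pCIG3-ACREB) with 0.5 µM VIP, ACREB virus with PBS, control virus (pCIG3, which carries a CMV promoter and GFP) with 0.5 µM VIP, and control virus with PBS. ACREB is a dominant-negative protein that binds the transcription factor CREB and keeps it from DNA. The labels name no promoter limited to 1 cell type, do not give the share of cells transduced, and do not say whether libraries 1, 2 and 3 of a group came from separate cultures or animals. The p-values below therefore cover the variation among the libraries at hand, which could be technical alone.

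VIP is a neuropeptide that binds G protein-coupled receptors, raises cyclic AMP and activates protein kinase A, which phosphorylates CREB and so switches on genes with cyclic AMP response elements. The 7 genes stand at different points of other pathways. Wnt7a and Pdgfb encode secreted ligands, the first a Wnt that guides brain vessel growth and the second a growth factor that holds pericytes to vessels. Gpr146 encodes an orphan G protein-coupled receptor. Stard8, also called DLC3, encodes a GTPase-activating protein. Dzip1l encodes a protein of the base of the primary cilium, through which Hedgehog signals pass. Tbx2 encodes a T-box transcription factor that acts mainly as a repressor, and Pfkfb3 an enzyme whose product activates phosphofructokinase and with it glycolysis.

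The sequence before the start of these genes is shown because CREB binds the cyclic AMP response element, TGACGTCA, and the shorter TGACG that it contains. RefSeq promoters on GRCm38.p6 were matched for 5 of the 7 genes, as 9 windows of 250 bases before an annotated start. The full element was in 0 of the 9 windows, against 1.55% of 32851 windows of the same length over all genes. The shorter TGACG, on either strand, was in 4 of the 9, against 17.8% of all windows. These 4 belong to Gpr146 and Pfkfb3 alone, and the Dzip1l windows overlap, so the 9 are not separate units. The 9 windows had 55.6% to 77.6% GC, against a median of 52.4% over all windows. The part of GC content in the matches was not tested. A match is a description of letters and not of binding, and no match says only that the letters are not in that window. Below, TGACG or its reverse complement CGTCA is in capitals, and positions count back from the base before the RefSeq start as -1. Gpr146 window 2 and the Wnt7a and Dzip1l windows are cut before the first annotated exon base, so positions do not count from the printed end. For Pfkfb3 only the bases around each match are printed. The Pfkfb3 matches lie past the first annotated exon base of the gene in their windows.
Gpr146, window 1, chr5:139377447-139377696, plus strand, with CGTCA at -189: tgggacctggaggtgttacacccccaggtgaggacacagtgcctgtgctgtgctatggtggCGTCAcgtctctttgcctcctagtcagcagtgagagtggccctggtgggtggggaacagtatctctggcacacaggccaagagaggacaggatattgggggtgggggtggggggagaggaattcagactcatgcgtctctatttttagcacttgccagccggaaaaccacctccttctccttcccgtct
Gpr146, window 2, chr5:139380389-139380580, plus strand, with TGACG at -65: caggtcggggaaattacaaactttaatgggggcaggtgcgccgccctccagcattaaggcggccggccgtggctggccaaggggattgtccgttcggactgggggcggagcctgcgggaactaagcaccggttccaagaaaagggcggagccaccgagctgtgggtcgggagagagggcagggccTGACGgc
Pfkfb3, window 1, chr2:11554025-11554053, minus strand, with TGACG at -112: agagctcacgggTGACGcgactcccgcgc
Pfkfb3, window 1, chr2:11553975-11554003, minus strand, with TGACG at -62: tcctccgcgccgTGACGtgccaagctgtg
Pfkfb3, window 2, chr2:11502091-11502119, minus strand, with TGACG at -6: aagaatgcggcccgccccgaggcTGACGc
Wnt7a, window 1, chr6:91411364-91411603, minus strand, no match: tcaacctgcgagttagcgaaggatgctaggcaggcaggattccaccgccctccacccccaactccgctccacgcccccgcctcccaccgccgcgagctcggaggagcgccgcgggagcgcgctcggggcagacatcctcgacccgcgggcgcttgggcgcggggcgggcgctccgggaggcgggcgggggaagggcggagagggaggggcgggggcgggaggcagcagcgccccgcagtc
Dzip1l, window 1, chr9:99629281-99629495, plus strand, no match: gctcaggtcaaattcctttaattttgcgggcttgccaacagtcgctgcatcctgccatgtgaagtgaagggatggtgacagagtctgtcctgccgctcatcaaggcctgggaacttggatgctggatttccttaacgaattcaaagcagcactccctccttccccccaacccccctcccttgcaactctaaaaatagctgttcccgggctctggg

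Total counts ranged from 16571398 to 20529238 per library. All 8 astrocyte markers were detected in every library, with summed levels of 5666 to 6281 CPM (counts per gene scaled to a common library size, with sizes adjusted by TMM) in control virus with VIP and 5148 to 5957 CPM in control virus with PBS. Of 8 endothelial markers, Cldn5 was at 0 in all 12 libraries and Tie1 in 8 of them, and their sum was 26.8 to 47.3 CPM with VIP and 22 to 56.6 CPM with PBS in control virus. The summed oligodendrocyte-lineage markers were lower with VIP in control virus, at 1010 to 1130 CPM against 1155 to 1574 CPM with PBS, and so were the ependymal markers, at 312 to 404 CPM against 425 to 443 CPM. In ACREB libraries both sums overlapped between VIP and PBS: oligodendrocyte-lineage markers at 930 to 1148 CPM with VIP and 1077 to 1154 CPM with PBS, ependymal markers at 341 to 388 CPM with VIP and 348 to 439 CPM with PBS. None of these markers passed the test for VIP in either virus. Nor did those of microglia, at 727 to 1542 CPM with VIP and 756 to 1453 CPM with PBS in control virus, or of fibroblasts and mural cells, at 1876 to 2231 CPM and 1932 to 2953 CPM in the same order. Of 7 tested neuronal markers, Gad1 passed in control virus, and their sum was 337 to 406 CPM with VIP and 209 to 380 CPM with PBS. Single genes made up much of some sums. Over the 12 libraries Olig1 averaged 620 CPM, the ependymal Foxj1 346 CPM, the neuronal Map2 302 CPM and the mural Acta2 2144 CPM. The 8 oligodendrocyte-lineage markers had a median log2 fold change of -0.18 in control virus, but Pdgfra had 0.11. The ependymal median was -0.10. The part of the other cell types in the results below was not tested. In bulk cultures, fewer cells of a type and less RNA per cell cannot be told apart. Library 2 of control virus with PBS was an outlier: the leading principal component, with 38.1% of the variance, put it at 81.2, followed by ACREB PBS library 2 at 34.6, with the other libraries at 7.02 or below. A smooth trend over the GC content and length of genes accounted for 43.6% of its departure from the median library, and amounted at the 7 genes to 0.36 on the log2 scale for Pdgfb, 0.32 for Wnt7a, 0.30 for Tbx2, 0.22 for Dzip1l, 0.20 for Gpr146, 0.15 for Stard8 and near 0 for Pfkfb3. Its part in the members' levels in that library was not tested, and shares that rest on that library are given below also without it.

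In control virus, the 7 genes were lower with VIP by between 30.3% and 50%. The ligand gene Wnt7a (ENSMUSG00000030093, GRCm38 chr6:91363981-91411363, minus strand) had 30.7, 37.0 and 34.5 CPM with VIP, against 60.1, 70.5 and 51.7 CPM with PBS. Its mean level was 34.1 ± 3.14 CPM with VIP and 60.8 ± 9.42 CPM with PBS (SD, n = 3 each), a log2 fold change of -0.84, or 44.0% lower. Every VIP library lay well below every PBS library, and the highest PBS value was that of library 2. The ligand gene Pdgfb (ENSMUSG00000000489, chr15:79995874-80014977, minus strand) had 47.4, 47.1 and 50.4 CPM with VIP, against 80.2, 89.8 and 69.5 CPM with PBS. Its log2 fold change was -0.72, 39.5% lower, and here the VIP libraries lay close together while the PBS libraries spread more widely.

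The receptor gene Gpr146 (ENSMUSG00000044197, chr5:139377697-139396415, plus strand) had the largest fold change of the 7 in control virus. It had 31.2, 40.9 and 38.1 CPM with VIP, against 68.3, 88.9 and 63.2 CPM with PBS, and its log2 fold change was -1.0, or 50% lower. The groups were far apart, and library 2 was the highest in each of them. Stard8 (ENSMUSG00000031216, chrX:99003248-99074728, plus strand), the GTPase-activating protein gene, had 58.7, 59.1 and 65.5 CPM with VIP, against 113.9, 107.0 and 94.3 CPM with PBS. Its log2 fold change was -0.78, 41.9% lower, with no overlap between the groups. The ciliary gene Dzip1l (ENSMUSG00000037784, chr9:99629496-99669256, plus strand) had 39.5, 37.7 and 35.9 CPM with VIP, against 65.1, 59.9 and 56.0 CPM with PBS. Its log2 fold change was -0.68, 37.5% lower, and in both groups the spread was narrow beside the gap between them.

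Tbx2 (ENSMUSG00000000093, chr11:85832551-85841948, plus strand), the T-box repressor gene, was the least abundant of the 7, with 56 to 164 counts per library. It had 5.68, 5.55 and 2.96 CPM with VIP, against 8.52, 9.03 and 6.16 CPM with PBS, in control virus. The log2 fold change was -0.74, or 40.1% lower, and the groups came close to touching, since VIP library 1 lay just below PBS library 3. Pfkfb3 (ENSMUSG00000026773, chr2:11471433-11554077, minus strand), the glycolysis activator gene, was the most abundant of the 7. It had 123.9, 131.9 and 151.6 CPM with VIP, against 186.2, 203.5 and 194.9 CPM with PBS, and its log2 fold change of -0.52, or 30.3% lower, was the smallest of the 7. Gpr146, Pdgfb and Pfkfb3 each lie across from a gene on the opposite strand (3110082I17Rik, Gm41361 and Gm10851), with no shared exon, and the counter's strand setting is not given in the sources used here.

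**Figure D1:**
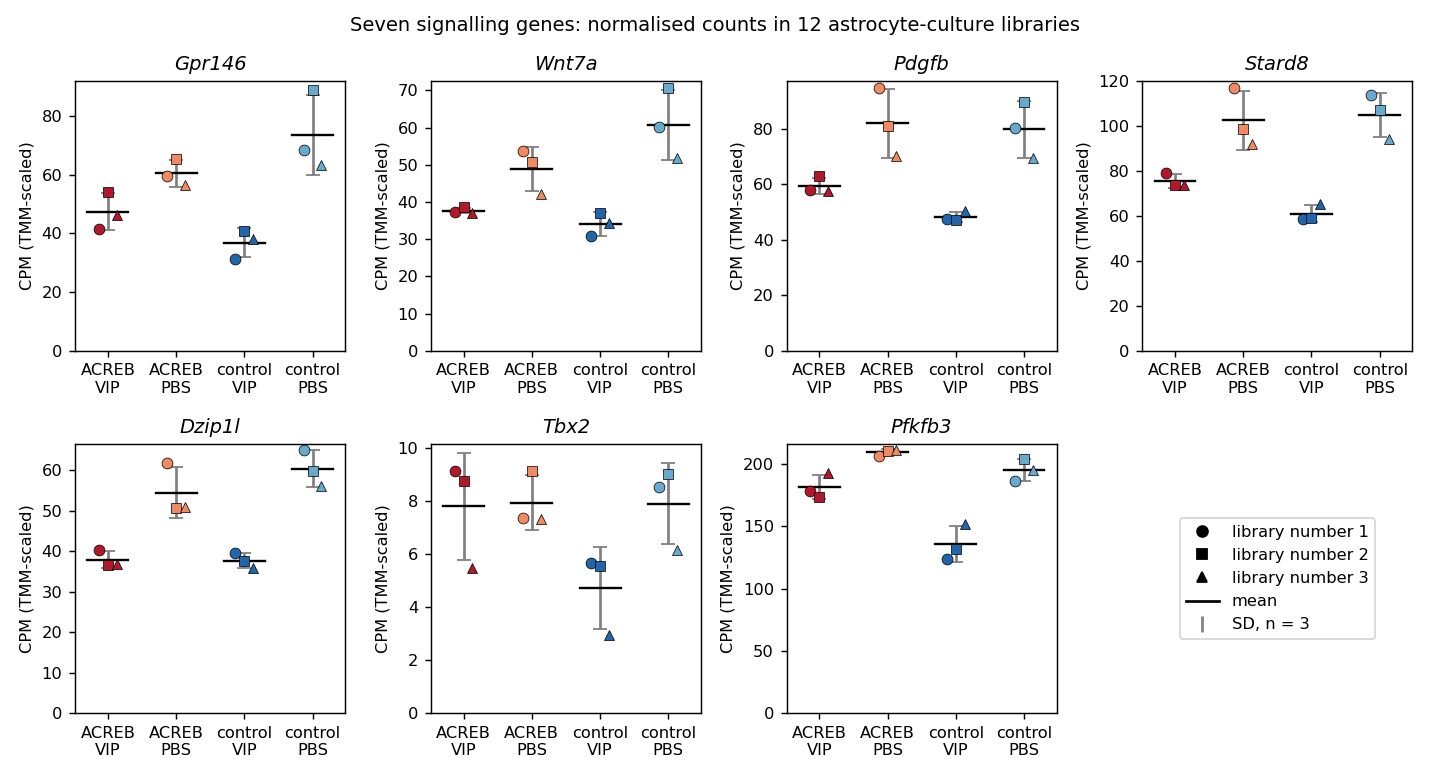
Level of each of the 7 genes in CPM, with library sizes scaled by TMM, in the 12 libraries, by virus and treatment; symbols give the library number, the line is the mean and the bar the SD (n = 3). With control virus all 7 genes lie lower with VIP than with PBS without overlap, and with ACREB all but Tbx2 do.

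Over all genes tested, 11 were called lower with VIP in control virus by edgeR's quasi-likelihood test at a Benjamini-Hochberg adjusted p below 0.05, which is 0.0656%, and 71 were called higher, which is 0.424%. Of the 7 genes, 6 were among those 11, and Tbx2 was not, with an adjusted p of 0.578 by edgeR, or 0.053 with the library number as a block. The other 5 of the 11 were Lfng at -0.99, Fhdc1 at -0.95, Cdc42ep4 at -0.85, and Rhob and Cdc42ep1 at -0.75 each, as log2 fold changes. Their edgeR adjusted p ran from 0.0182 for Cdc42ep4 to 0.0481 for Cdc42ep1. Just outside the threshold lay Ptpn21 at -0.63, Klf11 at -0.68 and Pik3ip1 at -0.50. All 7 genes had control virus libraries that did not overlap, as 5.27% of all genes tested did in that direction. These libraries chose the genes, so nothing is read from this count or from the 6 among the 11. Leaving out 1 library at a time moved the count of 11 to 0 (control VIP library 1), to 1 (control VIP library 2 or control PBS library 1), to 6 (control VIP library 3), and to 7 (ACREB PBS library 2, or any of the ACREB VIP libraries). It was 71 with DESeq2, 90 with the library number as a block and 218 with the block and offsets for GC content and length.

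The rule for the 7 genes used the VIP difference in control virus, which the ACREB counts do not enter, although the genes were picked with earlier results of all 12 libraries known and the edgeR fit shares its estimate of spread between viruses. In ACREB libraries all 7 again had lower mean levels with VIP, where 49.3% of all genes tested had a negative fold change. The differences were smaller than in control virus, which is partly set by the choice of the genes in control virus. None passed the test: edgeR called 0 of the 7, and 0 of all 16761 genes (0%), lower with VIP in ACREB libraries at an adjusted p below 0.05. At an unadjusted p below 0.05, 5 of the 7 were lower, against 108 of all genes tested, or 0.644%. The ACREB libraries with VIP lay below those with PBS without overlap for 6 of the 7, against 3.26% of all genes. It follows from the lack of overlap that the same 6 were lower in each of the 3 numbered pairs of libraries. DESeq2 called 2 genes lower, 1 of them Dzip1l. The median log2 fold change of the 7 was -0.38 in ACREB libraries and -0.74 in control virus, against medians over all genes of 0.002 and -0.02.

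Dzip1l held the most of its difference. It had 40.3, 36.5 and 36.9 CPM with VIP, against 61.7, 50.7 and 50.9 CPM with PBS, in ACREB libraries. All VIP values lay below all PBS values, and library 1 was the highest of its group both times. The log2 fold change was -0.52 ± 0.112 (SE, 95% interval -0.77 to -0.28), with an adjusted p of 0.442 by edgeR, 0.0597 with the library number as a block and 0.0146 by DESeq2. This is 77.1% of the log2 difference in control virus.

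For the ligand genes, more of the difference remained for Pdgfb than for Wnt7a. Pdgfb had 57.9, 62.9 and 57.5 CPM with VIP, against 94.8, 81.1 and 70.1 CPM with PBS, in ACREB libraries. The log2 fold change was -0.46 (95% interval -0.75 to -0.18, edgeR adjusted p = 1, unadjusted p = 0.0037 from the same fit), 64.1% of that in control virus. The groups did not overlap, and PBS library 1 was far above the other libraries. Wnt7a had 37.4, 38.6 and 37.1 CPM with VIP, against 53.7, 50.7 and 42.2 CPM with PBS, in ACREB libraries. The log2 fold change was -0.38 (95% interval -0.67 to -0.08, edgeR adjusted p = 1, unadjusted p = 0.0172), 44.9% of that in control virus. The VIP libraries were nearly equal, and PBS library 3 was the closest to them.

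Gpr146 had 41.4, 54.0 and 46.3 CPM with VIP, against 59.4, 65.4 and 56.3 CPM with PBS, in ACREB libraries. Its log2 fold change was -0.35 (95% interval -0.69 to -0.01, edgeR adjusted p = 1, unadjusted p = 0.0433), so the gene with the largest difference in control virus held 35.3% of it. VIP library 2 lay just below PBS library 3. Stard8 had 79.3, 74.0 and 74.0 CPM with VIP, against 117.2, 98.6 and 92.0 CPM with PBS, in ACREB libraries. Its log2 fold change was -0.44 (95% interval -0.69 to -0.18, edgeR adjusted p = 1, unadjusted p = 0.0027), or 55.9% of that in control virus, and the groups were clearly apart.

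Tbx2 was the 1 of the 7 whose ACREB libraries overlapped. It had 9.15, 8.78 and 5.48 CPM with VIP, against 7.36, 9.13 and 7.32 CPM with PBS. The log2 fold change was -0.02 (95% interval -0.61 to 0.56, edgeR adjusted p = 1), 3.38% of that in control virus, and the interval is wide enough to hold most of the control virus value. VIP library 1 was above its PBS partner and VIP library 3 below it, so the sign was not shared between pairs. Pfkfb3 had 178.3, 173.5 and 192.3 CPM with VIP, against 206.7, 210.1 and 211.0 CPM with PBS, in ACREB libraries. Its log2 fold change was -0.21 (95% interval -0.42 to 0.0097, edgeR adjusted p = 1), 39.6% of that in control virus. The PBS libraries were nearly equal and each VIP library lay below them.

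**Figure D2:**
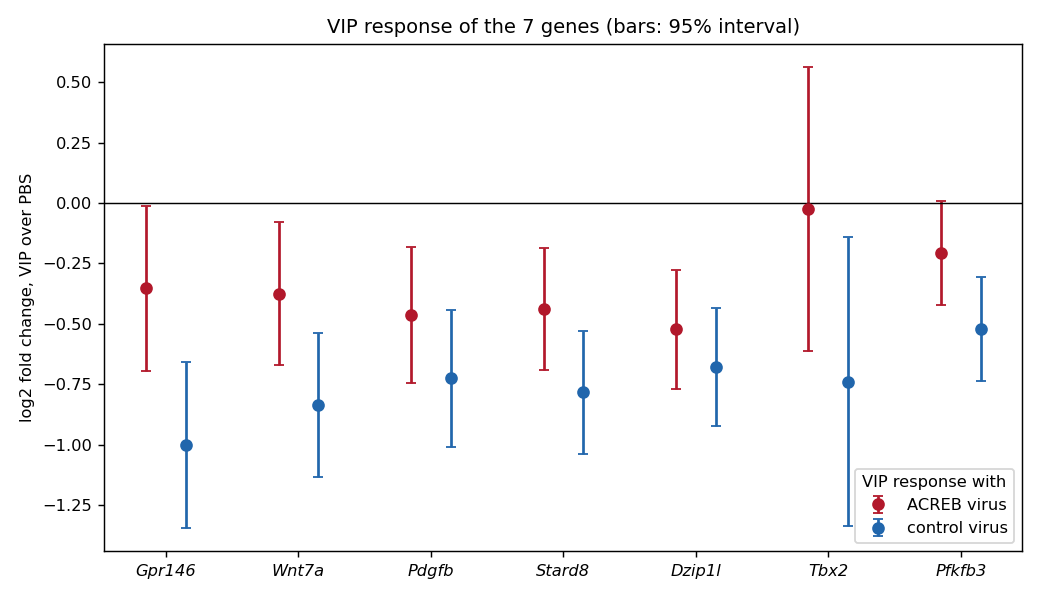
Log2 fold change of VIP over PBS for each of the 7 genes in ACREB virus (left point) and control virus (right point), from edgeR's fit of 12 libraries, with 95% intervals. Each ACREB point lies nearer 0 than its control virus point, by the least for Dzip1l (-0.52 against -0.68) and the most for Tbx2 (-0.02 against -0.74). The control virus values chose the genes, so the smaller ACREB values are partly set by the choice.

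The median share that remained was 44.9%, from 3.38% for Tbx2 to 77.1% for Dzip1l. Each share is taken over the control virus difference that chose the genes, so a smaller difference with ACREB is partly set by the choice. The shares are a description and do not measure the effect of ACREB. Taken as the mean of the 7 genes within each numbered pair, the difference was -0.33 ± 0.064 on the log2(CPM + 2) scale in ACREB libraries and -0.71 ± 0.128 in control virus (SD, n = 3 pairs each). The share that remained was 51.8% in pair 1, 39.4% in pair 2 and 49.1% in pair 3. Pair 2 holds control PBS library 2, the library that stood apart. Without that library the share was 77.0% for Dzip1l, 74.0% for Pdgfb, 57.3% for Stard8, 53.0% for Wnt7a, 42.9% for Pfkfb3, 42.5% for Gpr146 and 4.68% for Tbx2. Leaving out each of the 12 libraries in turn gave 26.6% to 45.9% for Gpr146, 35.9% to 56.2% for Wnt7a, 47.6% to 77.9% for Pdgfb, 42.1% to 65.1% for Stard8, 62.2% to 84.1% for Dzip1l and 33.5% to 47.9% for Pfkfb3. For Tbx2 the same range ran from -23.8% to 20.9%, where a negative share means a mean level higher with VIP. The ranges of most genes overlap, Tbx2 and Dzip1l being at the ends.

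For scale, a pair of genes that are higher with VIP also had a smaller response in ACREB libraries. This pair was named for being higher with VIP, so its smaller ACREB values are partly set by that choice. It does not stand for all genes that are higher with VIP. Nr4a2, an immediate-early gene and known CREB target, had a log2 fold change of 2.32 in ACREB virus and 3.53 in control virus, so 65.6% remained, and its ACREB value passed the test (edgeR adjusted p = 0.00104). Ppp1r3c, which targets a phosphatase to glycogen, had 0.78 in ACREB virus and 1.34 in control virus, so 58.4% remained, and its ACREB value did not pass (edgeR adjusted p = 0.528). The ACREB transgene itself has no measurement here, and the share of CREB activity that it left was not tested.

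ACREB virus was also set against control virus within each treatment. These comparisons use the control virus libraries that chose the genes, and they share libraries with each other, so the members' values are given as descriptions. With VIP, all 7 genes had higher levels with ACREB than with control virus, with a median log2 fold change of 0.31, while with PBS 3 of the 7 were higher, with a median of -0.03. The medians over all genes were 0.002 with VIP and 0.0075 with PBS. With VIP the log2 fold change was 0.72 for Tbx2, 0.42 for Pfkfb3, 0.36 for Gpr146, 0.31 for Stard8, 0.30 for Pdgfb, 0.15 for Wnt7a and 0.01 for Dzip1l. With PBS it was -0.31 for Wnt7a, -0.28 for Gpr146, -0.15 for Dzip1l, -0.03 for Stard8, 0.01 for Tbx2, 0.04 for Pdgfb and 0.10 for Pfkfb3. Of the 7, edgeR called 0 in either comparison, where 0.0537% of all genes were called with VIP and 0.0358% with PBS. DESeq2 called Pfkfb3 with VIP (adjusted p 0.0024, against 0.266 by edgeR and 0.0625 with the library number as a block), in a fit that called 134 genes with VIP and 112 with PBS, where edgeR with the block called 61 and 37.

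The difference between the VIP responses in the 2 viruses (the interaction, ACREB less control virus) was positive for all 7 genes, with a median of 0.35 on the log2 scale and 0.01 over all genes. It was 0.71 ± 0.384 (SE) for Tbx2, 0.65 ± 0.221 for Gpr146, 0.46 ± 0.192 for Wnt7a, 0.35 ± 0.164 for Stard8, 0.31 ± 0.140 for Pfkfb3, 0.26 ± 0.183 for Pdgfb and 0.16 ± 0.158 for Dzip1l. Because the genes were picked for a low value in control virus with VIP, a positive interaction is partly set by the choice. Over all genes, edgeR called 0 in the interaction, with or without the library number as a block, and DESeq2 called 0. At an unadjusted p below 0.05, edgeR had 92 genes positive and 109 negative.

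The 4 groups stood in different orders from gene to gene. For Gpr146, Wnt7a, Stard8 and Dzip1l the mean level was highest in control virus with PBS, then ACREB with PBS, then ACREB with VIP, and lowest in control virus with VIP. The PBS groups overlapped for all 4 of these. The VIP groups did not overlap for Gpr146, Wnt7a and Stard8, though by small margins for Gpr146, where the lowest ACREB library had 41.4 CPM and the highest control virus library 40.9 CPM, and for Wnt7a, at 37.1 CPM and 37.0 CPM in the same order. For Dzip1l the VIP groups overlapped, at 37.9 ± 2.06 CPM with ACREB and 37.7 ± 1.82 CPM with control virus (SD, n = 3 each).

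Pdgfb and Pfkfb3 were highest in ACREB with PBS. Pdgfb averaged 82.0 ± 12.4 CPM there and 79.8 ± 10.2 CPM in control virus with PBS, which overlapped, and 59.4 ± 2.99 CPM in ACREB with VIP and 48.3 ± 1.83 CPM in control virus with VIP, which did not. Pfkfb3 averaged 181.4 ± 9.77 CPM in ACREB with VIP and 209.3 ± 2.31 CPM in ACREB with PBS, against 135.8 ± 14.3 CPM in control virus with VIP and 194.9 ± 8.65 CPM in control virus with PBS. Its ACREB VIP libraries overlapped only those of control virus with PBS. Tbx2 averaged 7.81 ± 2.02 CPM in ACREB with VIP, 7.94 ± 1.04 CPM in ACREB with PBS and 7.90 ± 1.53 CPM in control virus with PBS, which all overlapped, and 4.73 ± 1.54 CPM in control virus with VIP, whose libraries overlapped those of ACREB with VIP. With VIP, ACREB libraries lay above control virus libraries without overlap for 5 of the 7 genes, against 6.97% of all genes tested, and with PBS for 1 of the 7, Pfkfb3, against 4.34%. The control virus libraries with VIP chose the genes by their low values, so nothing is read from the count with VIP.

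Per kilobase of exon, which allows levels to be compared between genes, Pfkfb3 was the most abundant in control virus with PBS, at 25.8 ± 1.14 CPM per kb. Pdgfb, Wnt7a and Stard8 were close to each other at 19.2 ± 2.44, 19.2 ± 2.97 and 19.1 ± 1.81 CPM per kb (SD, n = 3 each). Gpr146 followed at 10.8 ± 2.01 and Dzip1l at 7.56 ± 0.566 CPM per kb, and Tbx2 was lowest at 2.18 ± 0.423 CPM per kb. In control virus with VIP, Pfkfb3 had 18 ± 1.89, Pdgfb 11.6 ± 0.441, Stard8 11.1 ± 0.690, Wnt7a 10.7 ± 0.988, Gpr146 5.41 ± 0.733, Dzip1l 4.72 ± 0.228 and Tbx2 1.3 ± 0.423 CPM per kb.

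The 7 genes varied together over the 12 libraries, and their choice by a shared difference fixes part of this. Pearson's r of log2(CPM + 2) between pairs ranged from 0.50 for Dzip1l with Tbx2 to 0.97 for Pdgfb with Stard8, with a median of 0.84 over 21 pairs. These points share libraries, treatment and depth. The tested genes closest to the mean of the 7, among 12513 with a level of at least 2 CPM, were Ptpn21, a tyrosine phosphatase gene, at r = 0.97, Rhob at 0.97, Fhdc1, a formin-related gene, at 0.97, Nck2, an adaptor gene, at 0.96, and Rflnb, a refilin gene, at 0.94. Taken singly, the closest gene was Cdc42ep4 for Gpr146 (r = 0.97), Afap1l2 for Wnt7a (0.96), Ptpn21 for both Pdgfb (0.97) and Stard8 (0.95), Ajuba for Dzip1l (0.92), Arhgef11 for Tbx2 (0.89) and Palm3 for Pfkfb3 (0.96). Of the genes near the mean of the 7, Ptpn21 had a log2 fold change with VIP of -0.40 in ACREB libraries and -0.63 in control virus, Rhob -0.33 and -0.75, and Fhdc1 -0.45 and -0.95, in the same order of viruses. Nck2 had -0.32 in ACREB libraries and -0.60 in control virus, and Rflnb -0.27 and -0.59.

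**Figure D3:**
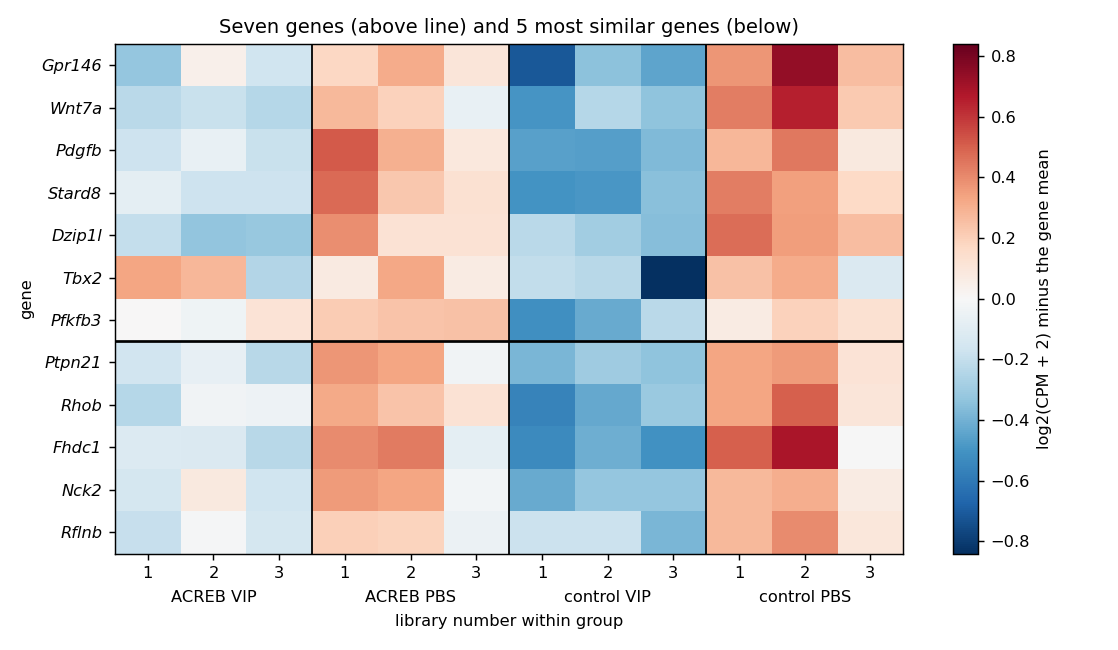
Log2(CPM + 2) minus the mean over 12 libraries for the 7 genes (above the line) and the 5 tested genes with the highest Pearson r to their mean (below), one column per library. Control virus with VIP is the lowest block for most genes; Tbx2 in control VIP library 3 is the lowest cell and Gpr146 in control PBS library 2 the highest.

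The other genes of the pathways to which the 7 belong were counted from lists of 177 genes, of which 139 were tested, leaving out the 7 themselves. With VIP in control virus, edgeR called 1 of the 139 higher and 1 lower at an adjusted p below 0.05, and in ACREB libraries 0 and 0. At an unadjusted p below 0.05 edgeR had 6 higher and 13 lower in control virus and 3 and 3 in ACREB libraries. Over all 16761 genes tested it had 549 higher and 527 lower in control virus, and 214 and 108 in ACREB libraries. DESeq2 called 4 higher and 3 lower in control virus, against 186 and 71 over all genes. In ACREB libraries DESeq2 called 0 of the 139, against 25 higher and 2 lower over all genes. The median log2 fold change of the 139 was -0.02 in ACREB libraries and -0.12 in control virus. With the library number as a block, 5 were called higher and 5 lower in control virus, against 184 and 90 over all genes. The lower gene was Rhob, which fell to 263.9 ± 23.0 CPM with VIP, against 445.0 ± 61.9 CPM with PBS (SD, n = 3 each, log2 fold change -0.75, edgeR adjusted p = 0.0185). In ACREB libraries Rhob had 331.6 ± 26.3 CPM with VIP and 417.1 ± 28.6 CPM with PBS (log2 fold change -0.33, edgeR adjusted p = 1). Rhob was no longer called when control VIP library 1, control VIP library 2 or control PBS library 1 was left out (edgeR adjusted p 0.145, 0.0918 and 0.0777). The higher gene was Gpr153, an orphan receptor gene like Gpr146, which rose to 15.1 ± 1.63 CPM with VIP, against 5.42 ± 2.18 CPM with PBS (log2 fold change 1.48, edgeR adjusted p = 0.0447). It had 8.01 ± 0.998 CPM with VIP and 4.48 ± 1.46 CPM with PBS in ACREB libraries (log2 fold change 0.84, adjusted p = 1), and its call in control virus held without control PBS library 2, ACREB PBS library 1 or ACREB PBS library 2 and was lost without any other single library, with an adjusted p of up to 0.233 by edgeR.

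Around the ligand gene Wnt7a, 0 of 9 other Wnt ligand genes passed the test with VIP in control virus by edgeR or DESeq2 (1 lower at an unadjusted p below 0.05). Of the 9, 8 had a negative fold change, with a median of -0.13, against 53.2% and -0.02 over all genes tested. Wnt5a had 65.0 ± 5.47 CPM with VIP and 75.2 ± 13.7 CPM with PBS, and Wnt7b, the closest relative of Wnt7a, 23.8 ± 8.57 CPM with VIP and 28.4 ± 9.33 CPM with PBS, in control virus. In both, the group means differed by less than the SD of the PBS libraries. Among 10 tested genes for Wnt secretion and inhibition, 17 for Wnt receptors and 8 for Wnt targets, 0 passed by edgeR in either direction, with medians of 0.003, -0.11 and -0.10, while DESeq2 called 1 of each list higher. Of the 8 target genes, 5 had a negative fold change. The values ran from -0.63 for Tcf7 to 2.80 for Lgr5, neither called by edgeR. With the library number as a block, 1 target gene was called higher and 1 lower, against 184 and 90 over all genes. The target gene Axin2, a negative feedback gene of Wnt signalling, had 39.7 ± 4.56 CPM with VIP and 37.1 ± 4.63 CPM with PBS in control virus. Of the receptor genes, Lrp6, a Wnt co-receptor gene, had 225.9 ± 36.9 CPM with VIP and 136.6 ± 59.2 CPM with PBS (log2 fold change 0.73, edgeR adjusted p = 0.696).

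Around Pdgfb, 0 of 6 other PDGF ligand and receptor genes passed in control virus by edgeR or DESeq2 (1 lower at an unadjusted p below 0.05). Of the 6, 4 had a negative fold change, with a median of -0.16, against 53.2% and -0.02 over all genes tested. The lowest was the receptor gene Pdgfrb at -0.49 and the highest the ligand gene Pdgfd at 0.56. Pdgfd had 40.1 ± 13.1 CPM with VIP and 27.1 ± 10.5 CPM with PBS. Pdgfa, another ligand gene of the family, had 50.7 ± 9.60 CPM with VIP and 60.7 ± 23.6 CPM with PBS. Pdgfra, a receptor gene and a marker of oligodendrocyte precursors, had 188.9 ± 15.7 CPM with VIP and 175.3 ± 37.9 CPM with PBS.

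Of 20 Hedgehog and ciliary genes around Dzip1l, 0 passed in control virus by edgeR, with 5 lower and 1 higher at an unadjusted p below 0.05, and DESeq2 called 2 lower. Ptch1, the Hedgehog receptor gene and itself a Hedgehog target, had 261.4 ± 23.3 CPM with VIP and 360.8 ± 70.5 CPM with PBS (log2 fold change -0.46, edgeR adjusted p = 0.471, or 0.0222 with the library number as a block). In ACREB libraries it had 277.1 ± 30.8 CPM with VIP and 350.1 ± 50 CPM with PBS (log2 fold change -0.34, edgeR adjusted p = 1). Dzip1, the relative of Dzip1l, had 107.7 ± 8.16 CPM with VIP and 96.8 ± 17.6 CPM with PBS in control virus. The difference was smaller than the SD of the PBS libraries. Of 15 other T-box genes 6 were tested, and 0 passed by edgeR or DESeq2 or at an unadjusted p below 0.05. In control virus 5 had a positive fold change, with a median of 0.32, while 53.2% of all genes tested had a negative one. Tbx3, the nearest relative of Tbx2, had 1.56 ± 0.571 CPM with VIP and 1.24 ± 0.672 CPM with PBS in control virus.

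Of 21 genes of the PFKFB family and glycolysis around Pfkfb3, 0 passed by edgeR or DESeq2 or at an unadjusted p below 0.05. In control virus 20 had a negative fold change, with a median of -0.13, against 53.2% and -0.02 over all genes tested. Gapdh had 1583 ± 118.7 CPM with VIP and 1733 ± 501 CPM with PBS, and Eno1 1036 ± 129.4 CPM with VIP and 1211 ± 427.2 CPM with PBS, so the spread of the PBS libraries was larger than the difference. In ACREB libraries 12 of the 21 were negative, with a median of -0.004, against 49.3% and 0.002 over all genes tested. Of 27 tested orphan receptor genes with a Gpr number, 19 had a negative fold change in control virus, against 53.2% of all genes tested. Their median was -0.18, and Gpr153 was the 1 called. Gpr37l1, an astrocyte receptor gene, had 51.7 ± 18.7 CPM with VIP and 67 ± 33.1 CPM with PBS, and Gpr85 had 44.6 ± 1.35 CPM with VIP and 54.8 ± 8.53 CPM with PBS, in control virus.

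**Figure D4:**
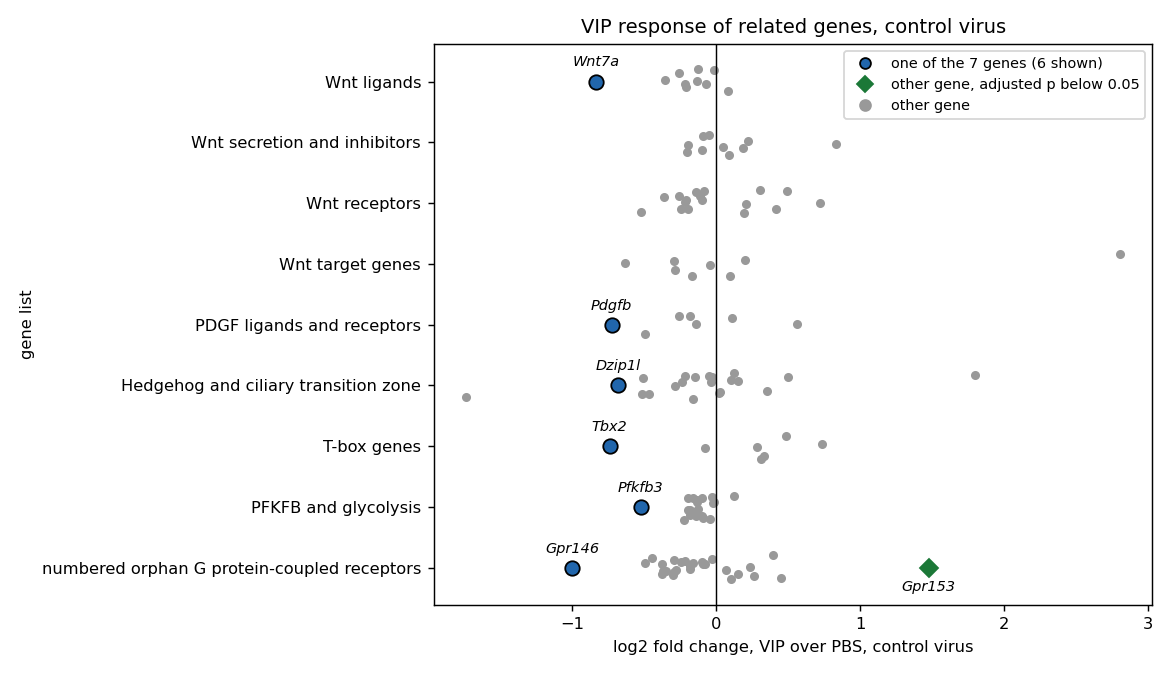
Log2 fold change of VIP over PBS in control virus for the tested genes of 9 pathway lists, 1 point per gene, with 6 of the 7 genes (all but Stard8) as blue circles and other genes past the adjusted p threshold as green diamonds; vertical scatter within a list carries no meaning. These 6 genes lie between -1.0 and -0.52, and Gpr153 at 1.48.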

How the data were processed

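Strand-specific polyA RNA was sequenced from 12 libraries. The table the authors deposited holds unnormalized counts for each Ensembl gene and library. The submitters' processing notes name HTSeq 0.11.2, STAR 2.7.1a, Trimmomatic 0.39, edgeR and R 3.6.1, and the GRCm38 (mm10) genome. How strands were counted, and with which annotation release, is not given in the sources used here.

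The 7 genes and all gene lists were chosen with earlier results of these data known. Symbols and positions came from GENCODE on GRCm38, which named 55480 of 55573 genes and left 93 without a match. In R 4.3.3, edgeR 4.0.16 kept 16761 genes (filterByExpr), scaled libraries by TMM and fitted a quasi-likelihood model of the 4 group means to all 12 libraries (residual degrees of freedom 8). P-values are two-sided and Benjamini-Hochberg adjusted over all genes tested. The SE is the absolute log2 fold change divided by the square root of F. The share that remains is 100 times the log2 fold change with ACREB over that with control virus. Log2 CPM was taken after adding 2. Fitting was tested on simulated data.

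Same-numbered libraries deviated together in all 18 pairs (r 0.132 to 0.679 with edgeR's log2 CPM; 17 of 18 over 0.1, the lowest 0.0864, with log2(CPM + 2)), and 12 of 12 libraries correlated best with their own number, so the numbers were taken to pair the libraries. Between VIP and PBS in control virus the pairing was weak. PBS library 3 had r = 0.132 with VIP library 3 and 0.134 with VIP library 1. With log2(CPM + 2) these were 0.0864 and 0.204, and PBS library 2 had 0.144 with VIP library 2 and 0.295 with VIP library 3. The control virus values by pair rest on this pairing. Alternatives were DESeq2 1.42.0 or its size factors, no filter on low counts, the number as a block, offsets for GC content and length (mgcv 1.9.3), the 6 libraries of 1 virus, and leaving out each library. Besides the 7 genes, named genes were Nr4a2, Ppp1r3c, the others called lower with VIP in control virus and the nearest outside the threshold. Also named were the 5 most similar in pattern and the nearest to each of the 7. Pathway genes were named if called or among the 4 most abundant of their list, of which the text gives a selection. For the PDGF, Wnt target and Hedgehog lists, the genes with the lowest and highest fold change are also named. The pathway list around Stard8 is in the totals but is not reported here by itself.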

Additional observations from a re-analysis of the deposited data

How the results depend on the processing

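All 7 genes kept a negative fold change with VIP in control virus in every alternative run. In ACREB libraries 6 of them did, while Tbx2, at -0.02 on the log2 scale, ranged from -0.15 to 0.18 when single libraries were left out. The count of the 7 called lower in ACREB libraries, 0 by edgeR, was 1 with DESeq2 and 1 with GC and length offsets plus the replicate block. That of all genes, also 0, was 2 and 8 in those fits, and both stayed at 0 without any single library. The count of genes called lower with VIP in control virus, 11, was 71 with DESeq2, 90 with the replicate block, 19 with GC and length offsets, 218 with both, 0 in the 6 libraries of 1 virus, and 0 to 11 without single libraries. The median log2 fold change of the 7 in control virus, -0.74, was -0.61 with GC and length offsets and -0.86 to -0.69 without single libraries. That in ACREB libraries, -0.38, was -0.47 to -0.33, and the median share that remained, 44.9%, was 39.8% to 56.2%, in the same runs. Genes called for ACREB against control virus with PBS, 6, were 15 with no filter, 112 with DESeq2, 37 with the block, 34 with offsets, 324 with both and 0 to 3 without single libraries. With VIP, 9 were 18, 134, 61, 41 and 615 in those fits, and 0 to 41 without single libraries, the 41 being without control PBS library 2. Pathway genes called lower with VIP in control virus, 1, were 3 with DESeq2, 5 with the block, 2 with offsets, 10 with both, 0 in the 6 libraries and 0 to 1 without single libraries. Those called higher, 1, were 2 with no filter, 4 with DESeq2, 5 with the block, 6 with offsets and block, 0 in the 6 libraries and 0 to 1 without single libraries. The fit of 6 libraries has fewer residual degrees of freedom, and for the other moves the cause was not tested. The replicate block changed no call of the 7 genes. With 3 libraries a group the intervals of single genes are wide, and for Tbx2, at 56 to 164 counts per library, the pairs of ACREB libraries differed in sign.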
